A study of Mus musculus with 12 samples.

Results

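Kallikreins are secreted serine proteases of the epidermis, and *Spink5* encodes LEKTI, the inhibitor that holds several of them in check. The genes followed here are the desquamation proteases *Klk5*, *Klk6*, *Klk7*, *Klk8*, *Klk9*, *Klk10*, *Klk11*, *Klk13* and *Klk14* together with *Spink5*. They were chosen by name, as the Ensembl identifiers of the deposited count table that map to these symbols. All 10 were found among the 52636 genes of the table, and all 10 passed the filter on low counts that left 18822 genes for testing.

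Full-thickness dorsal skin was collected on day 14 from C57BL/6 mice aged 3 months, in 4 groups of 3 mice. WT mice carried a floxed *Cdc42* without Cre, and KO mice (labelled Cdc42-/-) carried a floxed *Cdc42* with Cre driven by the keratin 5 promoter, which acts in basal keratinocytes, so that the layers descending from them also lose the gene while cells of the dermis keep it. Both of these groups received the vehicle, normal saline with 1% HPMC, per the methods of the study. WT+ZnO NPs and KO+ZnO NPs mice had these genotypes and were given zinc oxide nanoparticles on the skin at 2 mg/cm². Total counts lay between 21076320 and 28867802 per library, which is ample for 9 of the members and thin for *Klk14*, with at most 23 counts in a library.

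The *Cdc42* transcript was read first as a check of the labels. It averaged 616.5 ± 11.2 CPM (SD, n = 3, where CPM scales counts to a common library size) in WT, 439.3 ± 24.2 CPM in KO, 325.7 ± 21.1 CPM in the WT+ZnO NPs-labelled libraries and 376.9 ± 70.5 CPM in those labelled KO+ZnO NPs. KO was below WT in every library, by a log2 fold change of -0.49 with an adjusted p of 0.0653 (edgeR), and 6 of 22 alternative settings called it. The lowest mean was in a group labelled as having *Cdc42*, with a log2 fold change of -0.92 against WT and an adjusted p of 0.000799 (edgeR quasi-likelihood test), and both groups given ZnO NPs are named by their label. Transcripts of the Y chromosome summed to 214.8 to 244.6 CPM in the 3 WT+ZnO NPs-labelled libraries, in KO replicate 1 and in KO+ZnO NPs replicate 1, and to no more than 0.045 CPM in the other 7. The methods of the study describe female KO mice, and the Y-linked transcripts of KO replicate 1 and KO+ZnO NPs replicate 1 go against that. Whether libraries or labels were exchanged was not tested, and the results below hold for the groups as labelled. Between WT+ZnO NPs and WT, Y-linked transcripts and the treatment cannot be told apart. The skin identity was checked on markers: basal, spinous and granular keratinocyte genes were present in all 12 libraries. In whole skin, fewer cells of a type and less RNA per cell cannot be told apart.

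In the upper epidermis, corneocytes are held together by corneodesmosomes, and they are shed when proteases cut the proteins of these junctions. KLK5, a trypsin-like protease, can activate itself and then activates KLK7, a chymotrypsin-like protease, and KLK14. LEKTI inhibits these enzymes, and loss of human SPINK5 causes Netherton syndrome, a disease of excessive shedding and barrier failure. KLK5 and KLK14 can also cleave the receptor PAR2 on keratinocytes.

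The 9 kallikreins lie side by side on the plus strand of chromosome 7 (GRCm38), from 43690418 to 43851181, in the order *Klk14*, *Klk13*, *Klk11*, *Klk10*, *Klk9*, *Klk8*, *Klk7*, *Klk6* and *Klk5*. The only other protein-coding gene in these 160764 bp is *Klk12*, between *Klk13* and *Klk11*. The long noncoding gene 2310002F09Rik runs on the minus strand across *Klk8* to *Klk14*, and 21.7% of the 50-base stretches of *Klk8* are also found in its transcripts. Since the use of strand in the counting is not given in the sources used here, reads of both genes may not be fully separated. Its own mean level was between 0.565 and 2.03 CPM in the 4 groups, against 21.9 to 91.5 CPM for *Klk8*. *Klk14* shares 21% of its 50-base stretches with other genes and is the least certain member.

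Promoters of 3 genes from the cluster are shown because their genes frame the results: *Klk9* had the lowest fitted log2 fold change of the 9 kallikreins in the WT+ZnO NPs-labelled libraries, *Klk7* the highest level in every group, and *Klk5* encodes the activator of KLK7 and KLK14. Each runs 5′ to 3′ over the 150 bases before the RefSeq start site (GRCm38.p6, plus strand), at chr7:43791741-43791890, chr7:43811144-43811293 and chr7:43842119-43842268. Capitals mark CACCC on either strand, CCAAT, and GGGCGG on either strand, which in *Klk7* overlaps a CACCC.
Klk9: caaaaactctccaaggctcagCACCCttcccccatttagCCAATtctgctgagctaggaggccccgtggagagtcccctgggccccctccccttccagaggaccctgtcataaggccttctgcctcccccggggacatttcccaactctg
Klk7: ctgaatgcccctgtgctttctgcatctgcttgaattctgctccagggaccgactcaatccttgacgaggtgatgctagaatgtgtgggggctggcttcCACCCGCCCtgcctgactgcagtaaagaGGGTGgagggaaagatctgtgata
Klk5: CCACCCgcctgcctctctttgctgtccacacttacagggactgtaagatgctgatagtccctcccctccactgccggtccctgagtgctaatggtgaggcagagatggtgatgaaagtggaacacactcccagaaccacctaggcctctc

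The first capital of the *Klk5* line is the last base of a further CACCC that starts outside the stretch shown. Over the 250 bases before the start site, 8 of the 11 RefSeq promoters of the 9 kallikreins held CACCC on either strand, against 52% of all 32851 promoters. The GC box GGGCGG was in 4 of 11 (32.7% of all promoters). The CCAAT box was in that of *Klk9* alone (33.8% of all), the GATA element AGATAA in that of *Klk5* alone (9.99%) and a form of the metal response element, TGCACNC, in that of *Klk13* alone (10.4%). None of the 11 held the AP-1 element TGANTCA (6.75% of all promoters), the cyclic AMP response element TGACGTCA (1.55%), the TATA box TATAAA (12.4%), the Grainyhead element AACNGGTT (1.79%) or the other form of the metal response element, TGCGCNC (12.5%). Both strands were searched for each motif. The median GC content was 56% in the kallikrein promoters and 52.4% in all promoters. A match is only a run of letters in this window.

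Levels between genes were compared per exon length, as TPM (counts per exon length, scaled to a common sum). *Klk7* was the highest member in every group, with a mean of 921.4 ± 128 TPM in WT (SD, n = 3), and its range lay above that of the next gene in all 4 groups. In WT it was followed by *Klk6* at 274.7 TPM, *Spink5* at 209.4 TPM and *Klk10* at 135.9 TPM, whose neighbouring ranges overlapped. *Klk5* (113.4 TPM), *Klk8* (111.1 TPM) and *Klk9* (107.8 TPM) did not differ beyond their spread. *Klk11* (48.11 TPM), *Klk13* (13.98 TPM) and *Klk14* (0.4435 TPM) came last, each range below the one before. The same 3 genes were the lowest kallikreins in KO. In the WT+ZnO NPs-labelled libraries *Klk8* held the second place at 43.28 TPM and *Spink5* had moved to 23.98 TPM, behind *Klk11* at 27.18 TPM, but the ranges of the neighbours from *Klk8* to *Klk9* overlapped.

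The comparison of KO with WT asks what loss of *Cdc42* in keratinocytes did without nanoparticles. No member of 10 passed an adjusted p of 0.05, against 8.18% of all genes tested, and 1 of 10 had an unadjusted p below 0.05, against 26.1%. Fitted log2 fold changes ran from -0.815 for *Klk10* to 2.10 for *Klk14*, with a median of 0.546 (0.01 over all genes tested). DESeq2 on all 12 libraries also called 0 of 10, whereas DESeq2 on these 2 groups alone called 3, all higher, where 11% of all genes were, and edgeR on them alone called 2, where 8.07% of all genes were higher.

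*Klk14*, a trypsin-like protease, had 7, 4 and 4 counts in WT and 19, 20 and 23 counts in KO. The groups were separate, and the fitted difference was 2.10 ± 0.94 (log2, SE), with an adjusted p of 0.185 (edgeR). *Klk8*, known as neuropsin and found in the upper epidermis, was at 69.0, 51.2 and 62.9 CPM in WT and at 89.7, 103.5 and 81.4 CPM in KO. Every KO library was higher for *Klk8*, with a log2 fold change of 0.58 ± 0.35 and an adjusted p of 0.332. *Klk13* was at 10.02, 9.996 and 14.4 CPM in WT and at 18.4, 30.0 and 16.3 CPM in KO, again without overlap (0.91 ± 0.57, adjusted p = 0.346). Non-overlapping groups with KO higher were thus found for 3 of 10 members and for 18.6% of all genes tested.

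The activator *Klk5* was at 64.4, 50.3 and 47.6 CPM in WT and at 69.1, 108.6 and 56.6 CPM in KO, and *Spink5* at 465.5, 288.2 and 319.5 CPM in WT and at 449.3, 676.9 and 487.7 CPM in KO. For both, KO replicate 2 was the highest library and the groups overlapped. *Klk10* was the only member with a lower mean in KO, at 86.0, 41.7 and 72.2 CPM in WT and at 49.3, 37.6 and 26.7 CPM in KO, which overlapped (adjusted p = 0.381). *Klk7* was at 715.6, 539.1 and 614.5 CPM in WT and at 747.1, 842.9 and 506.4 CPM in KO, with a log2 fold change of 0.17 ± 0.41. The direction of *Klk7* turned to -0.09 once Y-linked transcripts entered the fit as a covariate, and that of *Klk11* turned from 0.17 to -0.07 without KO replicate 2.

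Marker genes of several cell types also differed between KO and WT. Of 8 inner root sheath genes 6 rose, with sums of 4.52 to 8.20 CPM in WT and 12576, 22.8 and 3602 CPM in KO replicates 1, 2 and 3, so that KO replicate 2 stood apart. Of 5 melanocyte genes 2 rose (12.5 to 33.9 CPM and 40.7 to 191 CPM), and of 6 stress keratinocyte genes 1 rose (1113 to 1716 CPM and 3567 to 6971 CPM). Of 8 hair shaft genes and 6 immune genes 1 each rose, and of 7 skeletal muscle genes 1 fell. The sums of 6 basal keratinocyte genes (4467 to 6165 CPM and 6733 to 10832 CPM) and of 6 fibroblast genes (7044 to 13893 CPM and 23144 to 37240 CPM) did not overlap either, with 0 genes of each list called. Lower in KO without overlap were the sums of 5 adipocyte genes (4498 to 6453 CPM and 1550 to 3137 CPM). Those of 4 endothelial genes were lower too (490 to 528 CPM and 283 to 354 CPM), again with 0 genes of each list called. For spinous and granular keratinocytes 0 of 5 and 0 of 8 genes were called. The part of these cell types in the members and in the other genes of desquamation was not tested.

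**Figure D1:**
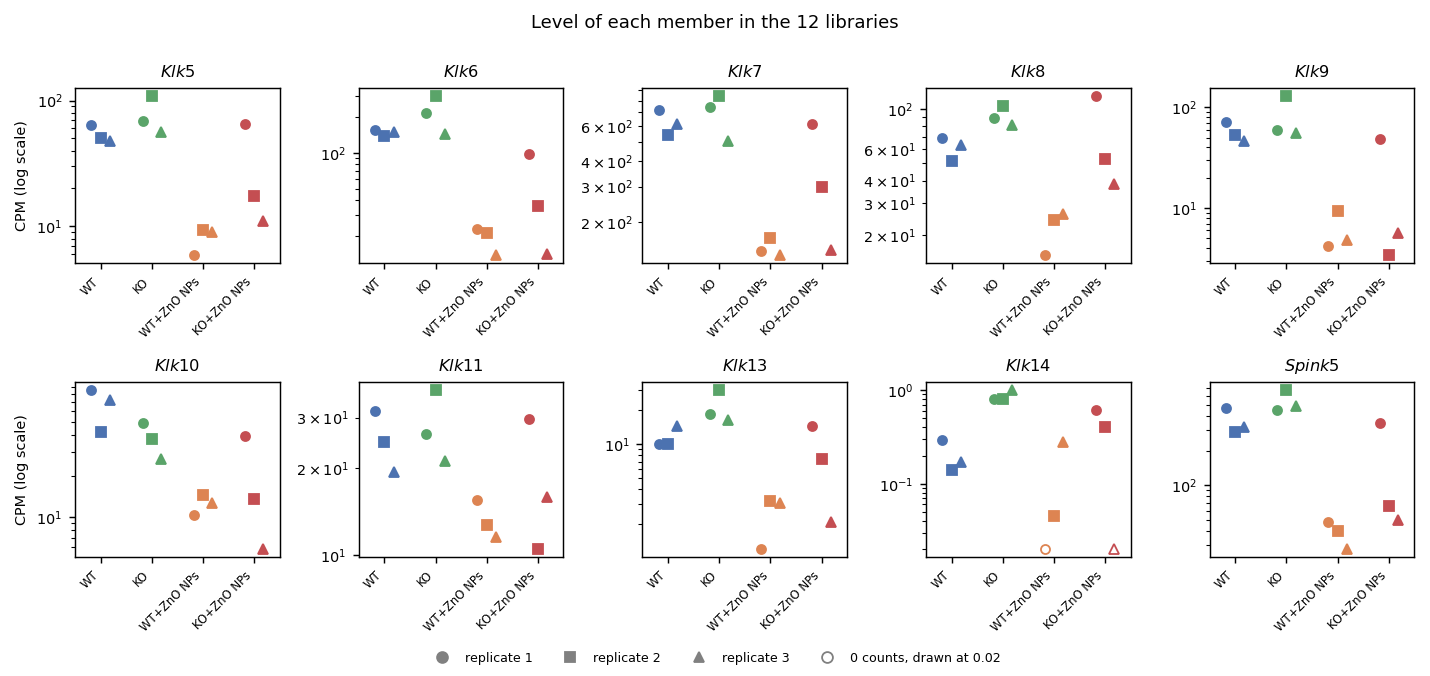
Level of each of the 10 members in each of the 12 libraries, in CPM on a log axis, by group, with the replicate as the symbol and open symbols for 0 counts. The WT+ZnO NPs libraries sit below all WT libraries in 9 of 10 panels, and KO+ZnO NPs replicate 1 (red circle) sits above the other treated libraries in all 10.

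The WT+ZnO NPs-labelled libraries were compared with WT to ask what nanoparticles did on skin labelled as having *Cdc42*. The desquamation proteases and their inhibitor were lower: 8 of 10 members fell (edgeR quasi-likelihood test, adjusted p below 0.05) and 0 rose, where 22.1% of all genes tested fell and 20.8% rose. The groups did not overlap, with WT higher, for 9 of 10 members, against 29.3% of all genes, and 9 of 10 had an unadjusted p below 0.05, against 51.6%. The median log2 fold change of the members was -2.31, against 0.056 over all genes tested. In a fit with a Y-linked covariate, whose effect is estimated from the KO and KO+ZnO NPs groups, 8 of 10 were called as well, where 12.3% of all genes fell. The log2 fold changes of the 8 were larger in that fit, from -5.05 for *Klk9* to -2.19 for *Klk8*. The Y-linked effect rests there on KO replicate 1 and KO+ZnO NPs replicate 1. The latter was the highest library given nanoparticles for 10 of 10 members. This fit therefore cannot tell Y-linked transcripts and the treatment apart.

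*Klk5*, whose product activates KLK7 and KLK14, was at 5.87, 9.31 and 9.09 CPM in the WT+ZnO NPs-labelled libraries, where WT had 47.6 to 64.4 CPM. It fell by 2.74 ± 0.58 on the log2 scale (SE, adjusted p = 0.00354), which is 6.68-fold, and the log2 fold change was -3.87 with the Y-linked covariate. *Klk7*, the chymotrypsin-like protease activated by KLK5, was at 143.5, 167.8 and 136.9 CPM and fell by 2.06 ± 0.42 (adjusted p = 0.00315). Even the highest of these libraries was far below the lowest WT library, at 539.1 CPM. *Spink5*, the inhibitor, was at 47.4, 39.9 and 27.8 CPM and fell 9.32-fold (log2 fold change -3.22 ± 0.65, adjusted p = 0.00295).

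*Klk6*, also called neurosin, was at 155.8, 138.7 and 150.4 CPM in WT and at 22.9, 21.4 and 13.8 CPM in the WT+ZnO NPs-labelled libraries. Its WT libraries lay close together, and it fell by 2.94 ± 0.58 (adjusted p = 0.00251). *Klk9* was at 70.8, 52.9 and 46.6 CPM in WT and at 4.16, 9.27 and 4.78 CPM in those libraries. It fell 9.37-fold (log2 fold change -3.23 ± 0.87, adjusted p = 0.0129), with an adjusted p of 0.0529 when WT+ZnO NPs replicate 3 was left out. *Klk10* was at 10.4, 14.5 and 12.7 CPM and fell by 2.41 ± 0.57 (adjusted p = 0.00681), and *Klk13* was at 1.20, 3.20 and 3.04 CPM and fell by 2.21 ± 0.60 (adjusted p = 0.0135).

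The remaining kallikreins had smaller fitted changes. *Klk8* was at 15.4, 24.2 and 26.3 CPM in the WT+ZnO NPs-labelled libraries and fell by 1.48 ± 0.36 (adjusted p = 0.00806). *Klk11*, another trypsin-like kallikrein, was at 31.5, 24.6 and 19.5 CPM in WT and at 15.5, 12.8 and 11.6 CPM in the WT+ZnO NPs-labelled libraries. These groups did not overlap, but the log2 fold change of -0.92 ± 0.35 had an adjusted p of 0.055, and 6 of 21 alternative settings called it. *Klk14* held 0, 1 and 7 counts and overlapped with WT (adjusted p = 0.566). Whether the members differed from each other in the size of the change was not tested.

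The members that fell were spread along the cluster from *Klk13* to *Klk5*, with *Klk11* between them not called, and included *Spink5*, which lies on the plus strand of chromosome 18, from 43963235 to 44022501. *Klk12*, inside the cluster, fell as well (log2 fold change -3.24, adjusted p = 0.00474), whereas *Ctu1*, the tested gene nearest to the cluster at 12.1 kb before it, had a log2 fold change of -0.11 (adjusted p = 0.579). *Siglece*, which encodes a receptor of myeloid cells and lies 30.3 kb before the cluster, fell by 2.91 (adjusted p = 0.00149).

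**Figure D2:**
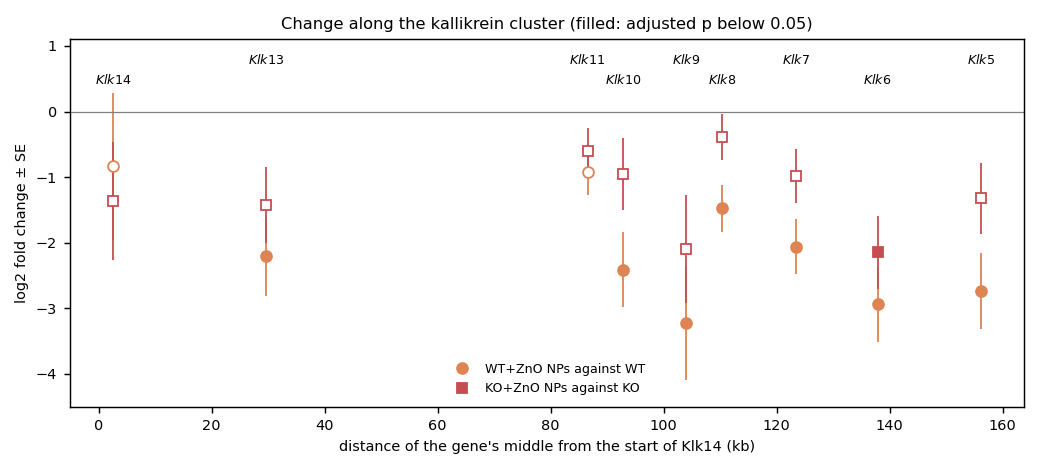
Log2 fold change ± SE of the 9 kallikreins against the distance of the gene's middle from the start of *Klk14*, in kb, for WT+ZnO NPs against WT (circles) and KO+ZnO NPs against KO (squares), filled where the adjusted p is below 0.05. All points lie below 0, with 7 filled circles and 1 filled square.

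Markers of many cell types moved with these genes. The summed level of 5 spinous keratinocyte genes was 5776 to 8464 CPM in WT and 1216 to 1556 CPM in the WT+ZnO NPs-labelled libraries, and 5 of 5 fell. That of 8 granular keratinocyte genes was 1783 to 3872 CPM and 342.1 to 867.7 CPM, where 3 of 8 fell and 1 rose. Of 6 basal keratinocyte genes 2 rose and 0 fell, with a sum of 4467 to 6165 CPM in WT and 6424 to 11044 CPM in the WT+ZnO NPs-labelled libraries. Summed levels of hair follicle genes were higher, with 8 inner root sheath genes at 4.52 to 8.20 CPM in WT and 825 to 5169 CPM in the others, and 8 hair shaft genes at 0.14 to 0.807 CPM and 475 to 1641 CPM. Outside the epithelium, 5 of 6 immune genes fell, with sums of 2537 to 3252 CPM in WT and 354 to 726 CPM in the WT+ZnO NPs-labelled libraries. Of 5 adipocyte genes 4 fell (4498 to 6453 CPM and 636 to 1378 CPM), and 4 of 4 endothelial genes fell (490 to 528 CPM and 94.7 to 216 CPM). All 5 melanocyte genes rose, from 12.5 to 33.9 CPM in WT to 368 to 1153 CPM. Of 6 stress keratinocyte genes 1 rose and 2 fell, with sums of 1113 to 1716 CPM in WT and 1831 to 2432 CPM in the others. Of 6 fibroblast genes 1 rose and 2 fell, and of 6 sebocyte genes 1 rose. No marker of these lists was at 0 in all libraries. The part of cell make-up and hair cycle stage in the fall of the members was not tested.

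Each member except *Klk14* was therefore also set against keratins within its own library, a ratio that does not depend on library scaling. Over *Krt5* and *Krt14*, keratins of basal cells, 9 of 9 members were below WT without overlap in the WT+ZnO NPs-labelled libraries, against 37.3% of all genes, with a median difference of -2.83 (log2), against -0.43 over all genes. *Krt5* itself rose in this comparison (log2 fold change 0.95, adjusted p = 0.0181), which lowers every ratio to it. Over *Krt1* and *Krt10*, keratins of spinous cells, which both fell, the median difference was -0.15, against 2.26 over all genes. On this scale 4 of 9 members (*Klk5*, *Klk6*, *Klk9* and *Spink5*) were below WT without overlap, against 2.8% of all genes. *Klk11* was above WT, as were 85.5% of all genes, and the other 4 overlapped.

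The other comparisons were read on the same ratios, and no test was run on any of them. Between KO and WT, 6 of 9 members were below WT over *Krt1* and *Krt10* (56.6% of all genes), with a median difference of -0.54 (-1.03 over all genes), where the fitted log2 fold changes of the 10 members had a median of 0.546. Over *Krt5* and *Krt14* 2 of 9 were below (56.6% of all genes), with a median of -0.34 (-0.83 over all genes). Between KO+ZnO NPs and KO, 4 of 9 were below over *Krt1* and *Krt10* (1.19% of all genes) and 6 of 9 over *Krt5* and *Krt14* (21.5%), with medians of -0.52 and -1.95 (1.17 and -0.27 over all genes). Between KO+ZnO NPs and WT+ZnO NPs, 4 of 9 were below over *Krt1* and *Krt10* (70.1% of all genes), with a median of -1.06 (-2.05 over all genes), and 0 of 9 over *Krt5* and *Krt14* (24.2%), with a median of 0.39 (-0.60 over all genes). For KO against WT, and between the groups given nanoparticles, the members' medians lay above those of all genes, and for KO+ZnO NPs against KO below them. The keratins divide every gene of a library alike, so this order had to be the same on both ratios. It restates the changes of the members without keratins and is no separate check.

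In the KO mice, the comparison of the KO+ZnO NPs-labelled libraries with KO asks what nanoparticles did on a barrier lacking *Cdc42*. Only *Klk6* of the 10 members fell (edgeR), where 8.09% of all genes tested fell and 6.57% rose, and 6 of 10 had an unadjusted p below 0.05, against 32.6%. *Klk6* was at 213.9, 299.7 and 142.8 CPM in KO and at 98.5, 35.7 and 14.1 CPM in the KO+ZnO NPs-labelled libraries. The groups did not overlap, and it fell by 2.15 ± 0.56 on the log2 scale (adjusted p = 0.0306). The call was lost without KO replicate 1 (adjusted p = 0.0525), KO replicate 2 (0.107) or KO+ZnO NPs replicate 2 (0.0932), and with edgeR on these 2 groups alone (0.115). The groups did not overlap, with KO higher, for 5 of 10 members, against 17.6% of all genes. All 10 fitted log2 fold changes were negative, from -2.15 to -0.392, with a median of -1.34 (0.0073 over all genes tested).

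The KO+ZnO NPs-labelled libraries were spread widely. *Spink5* was at 348.2 CPM in replicate 1, 65.5 CPM in replicate 2 and 50.2 CPM in replicate 3. *Klk5* was at 65.4, 17.3 and 11.1 CPM, and *Klk9* at 48.5, 3.37 and 5.61 CPM. Replicate 1 was the highest of the 6 libraries given nanoparticles for all 10 members, against 15.6% of all genes, and it lay within the range of the KO libraries for 4 of 10, against 34.7%. Replicates 2 and 3 lay below all KO libraries in 10 of 10, against 23.7% of all genes.

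*Klk7* followed the same pattern, at 614.4, 298.4 and 145.6 CPM in the KO+ZnO NPs-labelled libraries (log2 fold change -0.99 ± 0.41, adjusted p = 0.122). *Klk8* was at 118, 52.7 and 38.5 CPM, with replicate 1 above every KO library (-0.39 ± 0.35, adjusted p = 0.472). *Klk10* was at 39.1, 13.5 and 5.79 CPM, *Klk11* at 29.7, 10.5 and 15.9 CPM, and *Klk13* at 14.5, 7.40 and 2.09 CPM. *Klk14* held 14, 8 and 0 counts. The log2 fold change of *Spink5* was -1.80 ± 0.62, with an adjusted p of 0.0717.

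Without KO+ZnO NPs replicate 1, 9 of 10 members were called lower, all but *Klk14*, against 8.29% of all genes in that fit, and the log2 fold change of *Spink5* became -3.22 (adjusted p = 0.00735) and that of *Klk5* -2.46 (adjusted p = 0.00787). That library also held Y-linked transcripts, as did KO replicate 1. In the 7 libraries without them, 2 of which are labelled KO and 2 KO+ZnO NPs, 6 of 10 members were called lower (*Klk5*, *Klk6*, *Klk7*, *Klk8*, *Klk9* and *Spink5*), against 7.39% of all genes in that fit. The granular keratinocyte genes summed to 4212 CPM in KO+ZnO NPs replicate 1 and to 326 and 790.1 CPM in replicates 2 and 3, and to 2869 to 6030 CPM in KO. Skeletal muscle genes went the other way, with 3055 CPM in replicate 1, 13494 and 16713 CPM in replicates 2 and 3, and 1600 to 5377 CPM in KO. Spinous keratinocyte genes summed to 9536, 6270 and 2334 CPM in replicates 1, 2 and 3. In the comparison of all 3 libraries with KO, 5 of 6 immune genes fell, 3 of 6 sebocyte genes and 1 of 7 skeletal muscle genes rose, and 0 of 5 spinous and 0 of 8 granular genes were called. The part of these differences in the spread of the members was not tested.

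**Figure D3:**
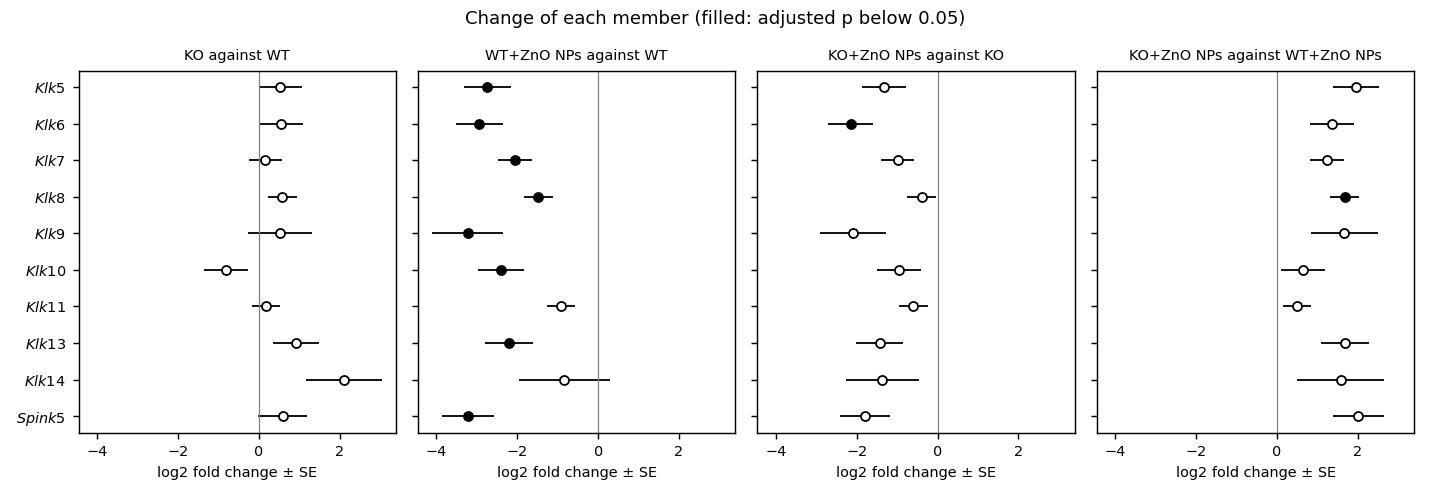
Fitted log2 fold change ± SE (edgeR) of each member in the 4 comparisons, filled where the adjusted p is below 0.05. No member is filled for KO against WT, 8 are for WT+ZnO NPs against WT, *Klk6* alone for KO+ZnO NPs against KO and *Klk8* alone for KO+ZnO NPs against WT+ZnO NPs.

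Between the groups given nanoparticles, *Klk8* was the only member called, higher in the KO+ZnO NPs-labelled libraries (log2 fold change 1.67 ± 0.36, adjusted p = 0.0409), where 2.13% of all genes tested were called higher. Its lowest value there was 38.5 CPM, above the highest in the WT+ZnO NPs-labelled libraries, 26.3 CPM. *Klk5* and *Spink5* were also separate, with log2 fold changes of 1.95 ± 0.56 (adjusted p = 0.0737) and 2.01 ± 0.62 (adjusted p = 0.0873), so 3 of 10 members did not overlap, against 13% of all genes, and 6 of 10 had an unadjusted p below 0.05, against 24.8%. Spinous keratinocyte genes moved the same way, with 3 of 5 called higher and a median log2 fold change of 2.05, and *Krt1* was at 2.71 (adjusted p = 0.0362). The part of the spinous cells in the call of *Klk8* was not tested. All 3 WT+ZnO NPs-labelled libraries held Y-linked transcripts, against 1 of 3 of those labelled KO+ZnO NPs. The call of *Klk8* was lost with these transcripts in the fit (log2 fold change 2.02, adjusted p = 0.104), with the replicate number as a block (0.0624), with edgeR on these 2 groups alone (0.202) and in 11 of the 12 settings that leave out 1 library. Without KO+ZnO NPs replicate 3, 6 members were called higher, where 5.48% of all genes were. Without KO+ZnO NPs replicate 1, the sign of *Klk9* (from 1.66 to -0.42), *Klk10* (from 0.64 to -0.38) and *Klk11* (from 0.49 to -0.00354) turned.

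Whether the change with nanoparticles differed between the genotypes was tested by the interaction. It was called for 0 of 10 members by edgeR and by DESeq2 on all 12 libraries, and 0 of 10 had an unadjusted p below 0.05, against 8.68% of all genes called and 27.4% with an unadjusted p below 0.05. The interaction estimate of *Klk8* was 1.08 ± 0.50 (log2, adjusted p = 0.191) and that of *Klk5* 1.42 ± 0.76 (adjusted p = 0.257). These 2 comparisons with ZnO NPs are therefore not shown to differ for any member, with wide intervals.

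The balance of protease and inhibitor was followed as the ratio of their CPM within a library. Over *Spink5*, *Klk7* stood at 0.62, 0.90 and 0.94 (log2) in WT and at 1.60, 2.07 and 2.30 in the WT+ZnO NPs-labelled libraries. These groups were separate, with a difference of 1.17 (exact permutation test, two-sided, p = 0.1, which is the lowest possible for 3 against 3, adjusted p = 0.3 over 12 comparisons of 3 ratios). In KO this ratio was 0.73, 0.32 and 0.05, and in the KO+ZnO NPs-labelled libraries it was 0.82, 2.19 and 1.54. The groups were separate there too, by 1.15 (exact permutation p = 0.1, adjusted 0.3), although replicate 1 exceeded the highest KO library only slightly. The ratio to *Spink5* was above WT without overlap in the WT+ZnO NPs-labelled libraries for 91.9% of all genes, with a median difference of 3.26, and for 4 of 9 kallikreins (*Klk6*, *Klk7*, *Klk8* and *Klk11*). *Klk9* over *Spink5* was at -2.72, -2.45 and -2.78 in WT and at -3.51, -2.11 and -2.54 in those libraries, which overlapped. In KO+ZnO NPs against KO the ratio to *Spink5* was above for 65.2% of all genes, with a median difference of 2.33, and for 5 of 9 kallikreins. The differences of *Klk7* over *Spink5* were below those of the median gene in both comparisons. *Spink5* divides every gene of a library alike, so this order restates the change of *Klk7* itself and does not bear on the balance. *Klk5* over *Spink5* differed by 0.47 between WT+ZnO NPs and WT, with overlap (exact permutation p = 0.4, adjusted 0.6), and by 0.64 between KO+ZnO NPs and KO, without overlap (exact permutation p = 0.1, adjusted 0.3). *Klk14* had too few counts for a firm ratio, since 1 library in each treated group held 0.

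**Figure D4:**
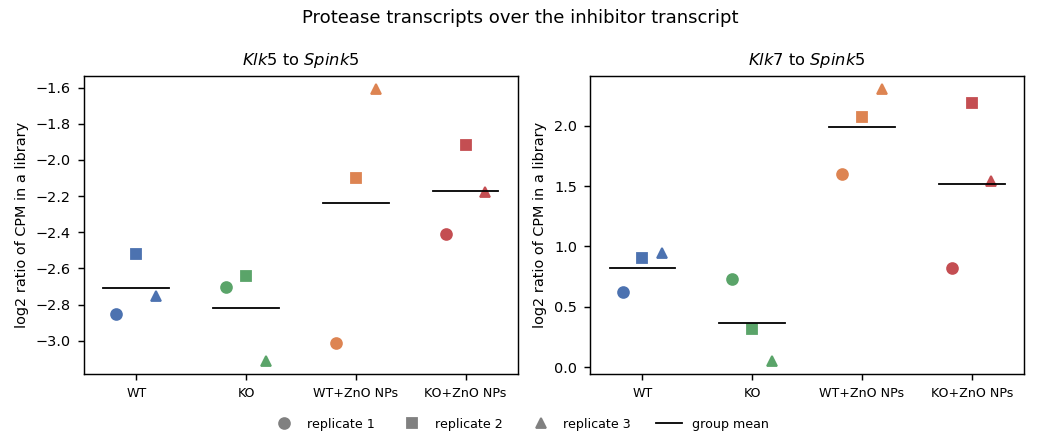
Log2 ratio of *Klk5* (left) and *Klk7* (right) to *Spink5* in each library, with the replicate as the symbol and a line at the group mean. For *Klk7* the WT+ZnO NPs-labelled libraries (1.60 to 2.30) lie above WT (0.62 to 0.94).

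The make-up of the kallikrein transcripts was given by the share of each gene in the summed TPM. This sum was 1506 to 1985 TPM in WT, 1638 to 2641 TPM in KO and 363.6 to 460.4 TPM in the WT+ZnO NPs-labelled libraries. In those labelled KO+ZnO NPs it was 1606, 586.4 and 377 TPM. *Klk7* made up 53.4% ± 0.28 in WT (SD, n = 3), 49.8% ± 2.8 in KO, 58.2% ± 1.5 in WT+ZnO NPs and 57.2% ± 4.8 in KO+ZnO NPs. *Klk6* held 16% ± 1.4 in WT and 9.46% ± 2.4 in WT+ZnO NPs, and *Klk8* held 6.43% ± 0.29 and 10.5% ± 2.8. *Klk11* went from 2.78% ± 0.51 to 6.76% ± 1.4. *Klk5* went from 6.57% ± 0.60 to 4.47% ± 0.95 and *Klk9* from 6.23% ± 0.86 to 2.96% ± 1.0. The ranges of 6 of 9 shares did not overlap between these 2 groups, with *Klk7*, *Klk8* and *Klk11* higher and *Klk5*, *Klk6* and *Klk9* lower, while that of *Klk10* did, at 7.73% ± 1.8 in WT and 6.73% ± 0.69. Between KO and WT 6 of 9 shares were separate as well, with *Klk6*, *Klk8*, *Klk13* and *Klk14* higher in KO and *Klk7* and *Klk10* lower. Separate shares numbered 4 of 9 between KO+ZnO NPs and KO, and 1 of 9 between the groups given nanoparticles. No test was run on the shares.

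**Figure D5:**
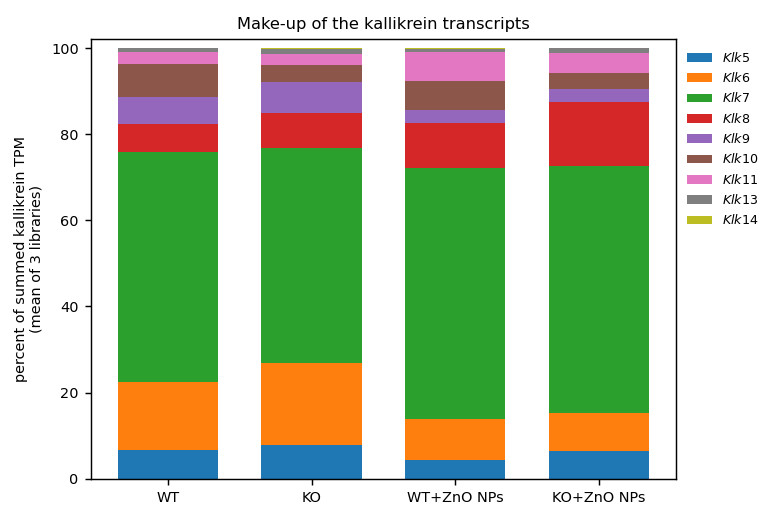
Share of each kallikrein in the summed kallikrein TPM, in percent, as stacked bars of the group means of 3 libraries. *Klk7* (green) is the largest part in each group, at 49.8% to 58.2%.

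Other genes of the desquamation pathway were read from 7 lists of 73 genes, of which 53 were tested. In KO against WT 10 of 53 rose and 0 fell, where 4.61% of all genes rose and 3.58% fell, among them the inhibitors *Spink12* (log2 fold change 5.73 ± 1.29, adjusted p = 0.0251), *Wfdc12* (3.12 ± 0.56, adjusted p = 0.00995) and *Slpi* (2.62 ± 0.64, adjusted p = 0.0338). *Spint1* (1.36) and *Spint2* (0.73), inhibitors of membrane-bound serine proteases, rose as well. Of 8 corneodesmosome proteins 3 rose, *Dsg1c* (2.82), *Pkp1* (1.23) and desmoplakin, *Dsp* (1.14). The WT means of *Spink12*, *Wfdc12* and *Dsg1c* were very low, at 0.206, 0.673 and 0.173 CPM. *Htra1*, a serine protease, and *F2r*, a thrombin receptor, made up the rest. The inner root sheath, melanocyte, fibroblast, stress keratinocyte and basal keratinocyte sums given above were higher in the same libraries. The adipocyte and endothelial sums were lower. The part of these cell types was not tested. The count of 10 became 5 in the 7 libraries without Y-linked transcripts. Leaving out a library gave 5 without WT replicate 1 or KO replicate 1, 4 higher and 1 lower without KO replicate 2, 2 without WT replicate 3, 0 without WT replicate 2 and 17 without KO+ZnO NPs replicate 3.

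In the WT+ZnO NPs-labelled libraries, 24 of 53 fell and 5 rose against WT, where 22.1% of all genes fell and 20.8% rose. Among 8 activating proteases 4 fell, *Tmprss11f* (-3.52 ± 1.01, adjusted p = 0.0174), *Tmprss11a* (-2.99), *Prss27* (-2.16) and urokinase, *Plau* (-2.12), while *St14*, which encodes matriptase, rose (2.33 ± 0.32, adjusted p = 0.00034). The matriptase inhibitors *Spint1* (2.10) and *Spint2* (1.61) rose with it, and of 12 inhibitors tested 3 rose and 5 fell, with *Spink7* (-4.88) and *Wfdc5* (-2.59) falling most. *Spink7* and *Tmprss11a* were already low in WT, with means of 2.67 and 1.61 CPM. Of the 8 corneodesmosome proteins *Dsc1* (-3.19), *Cdsn*, the corneodesmosin gene (-2.58), and *Dsg1b* (-1.01) fell, and *Dsg1c*, at 0.173 CPM in WT, rose (2.21). Cathepsins and other proteases had 5 of 9 lower and 0 higher, led by *Asprv1* (-2.90), the gene of a filaggrin-processing protease, and *Ctsl* (-2.48), the gene of cathepsin L. In lamellar granule transport, which carries these proteases to the cell surface, 5 of 8 fell and 0 rose, led by the lipid transporter *Abca12* (-1.93). *Il1a* (-2.88) was the only receptor or cytokine target called, and *Klk12* the only called gene among the 2 other kallikreins tested.

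In the KO+ZnO NPs-labelled libraries against KO, 6 of 53 fell and 1 rose, where 8.09% of all genes fell and 6.57% rose. *Il1b* (-3.20 ± 0.78, adjusted p = 0.0248), *Slpi* (-2.79), *Ctsl* (-1.79), *Ctsh* (-1.53), *Plau* (-1.14) and *Htra1* (-0.84) fell, and *Spint2* (0.61) rose. The number called was 20 without KO+ZnO NPs replicate 1, 4 without WT replicate 1 or 3, 3 without KO+ZnO NPs replicate 3, 2 without KO replicate 3, 1 without KO+ZnO NPs replicate 2 and 0 without KO replicate 2. Between the groups given nanoparticles *Wfdc5* alone of the 53 was called, where 3.28% of all genes were, higher in KO+ZnO NPs (2.29 ± 0.51, adjusted p = 0.0436), and 0 were called when any library except KO+ZnO NPs replicate 3 was left out.

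The genes whose profile was most like that of the 9 kallikreins, by Pearson's r over the 12 libraries among 11260 genes, were *Sdr9c7* (0.996), *Lypd5* (0.988), *Hal* (0.985), *Il22ra1* (0.985) and *Dkkl1* (0.979). For *Spink5* they were *Il1f8* (0.987), *Pla2g2f* (0.984), *Lipk* (0.98), *Sdr9c7* (0.978) and *Krt80* (0.977). These libraries share their groups and skin composition, so the correlations are given as a description. *Sdr9c7*, which encodes an enzyme of epidermal lipid processing, appeared in both lists, with means of 55.5 CPM in WT, 78.9 CPM in KO, 4.82 CPM in WT+ZnO NPs and 24.1 CPM in KO+ZnO NPs.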

How the data were processed

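Skin RNA-seq of 12 libraries was analysed. The authors deposited whole-number counts per gene without normalization. Per the submitters' processing notes HISAT2 2.0.5 and mm10 were used, whereas the methods of the study name STAR and HTSeq. Neither strand use nor the annotation release is given in the sources used here. HTSeq drops ambiguous reads in its default mode. Identifiers were matched to GENCODE M21 (52403 of 52636), and 0 entries named no gene.

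Counts were tested with the edgeR 4.0.16 quasi-likelihood test (R 4.3.3) with TMM factors, filterByExpr, all 12 libraries in a common fit, and Benjamini-Hochberg adjustment over 18822 genes, called at 0.05. Standard errors, derived from F, are approximate. CPM is scaled by TMM factors, and TPM divides by exon length. DESeq2 1.42.0 and other settings were alternatives. The steps were tested on simulated data. All 10 members are named, with up to 4 called genes per list and comparison and the 5 genes most alike. The members and lists were chosen with earlier results of these data known, and the fit without Y-linked libraries was added after seeing the data. The labels do not name separate litters or batches, so p-values measure only the spread between these mice.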

Additional observations from a re-analysis of the deposited data

Results flagged for a closer look

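The interaction of genotype and ZnO NPs was called for 3 of the 53 pathway genes tested (edgeR, adjusted p below 0.05). It was called for 0 of the 10 kallikrein and *Spink5* genes. Of all genes 8.68% were called, and neither count exceeds that share. *St14*, the matriptase gene, had an interaction of -1.88 ± 0.44 (log2, adjusted p = 0.0289), with means of 41.4 CPM in WT, 208 CPM in WT+ZnO NPs, 88.4 CPM in KO and 120 CPM in KO+ZnO NPs. *Spint1*, an inhibitor of matriptase, had -2.05 ± 0.44 (adjusted p = 0.0228), with means of 24.1, 103, 61.6 and 63.8 CPM in the same order. *Spint2*, a related inhibitor, had -0.996 ± 0.26 (adjusted p = 0.0413), with means of 71.1, 217, 118 and 180 CPM. With Y-linked transcripts in the fit, 0 pathway genes had a called interaction, and the number was also 0 without WT replicate 2, WT replicate 3, WT+ZnO NPs replicate 3 or KO replicate 1, and 5 without KO+ZnO NPs replicate 3.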

How the results depend on the processing

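For the WT+ZnO NPs comparison with WT, 7 to 9 of the 10 members were called under every alternative run. Of the fold changes of single members, 967 kept their direction and side of the threshold, 41 newly passed it, 19 no longer passed it and 10 turned, none of the 10 past the threshold. Members called in KO against WT numbered 0, but 3 by DESeq2 and 2 by edgeR on only those groups. In KO+ZnO NPs against KO the number was 1, but 3 by DESeq2 on all 12 libraries, 2 by DESeq2 and 0 by edgeR on only the groups compared, 4 with Y-linked transcripts in the fit, 6 in the 7 libraries lacking them and 0 to 9 leaving out each library. Between the groups given ZnO NPs it was 1, but 5 by DESeq2 on all libraries, 2 by DESeq2 and 0 by edgeR on only the groups compared, 0 with Y-linked transcripts in the fit and 0 to 6 leaving out each library. The replicate numbers did not pair the mice, with correlations of same-numbered libraries from -0.343 to 0.429, and a fit with the number as a replicate block called 2 members in KO+ZnO NPs against KO, 0 between the groups given ZnO NPs and 9 in WT+ZnO NPs against WT.

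Pathway genes called in KO against WT numbered 10, but 18 and 27 by DESeq2 on all libraries and on only those groups, 18 by edgeR on only those groups, 5 in the 7 libraries lacking Y-linked transcripts and 0 to 17 leaving out each library. In KO+ZnO NPs against KO they were 7, but 11 by DESeq2 on all libraries, 2 by edgeR on only those groups, 17 in the 7 libraries and 0 to 20 leaving out each library. Between the groups given ZnO NPs they were 1, but 16 and 5 by DESeq2, 0 by edgeR on only those groups, 4 with at least 10 counts in every library, 0 with Y-linked transcripts in the fit and 0 to 13 leaving out each library. For the interaction they were 3, but 7 by DESeq2 on all libraries, 0 with Y-linked transcripts in the fit and 0 to 5 leaving out each library. The causes were not tested. Over all genes, the number called in KO against WT was 1540, but 3029 and 4522 by DESeq2 on all libraries and on only those groups, 2794 by edgeR on only those groups, 958 with Y-linked transcripts in the fit, 694 in the 7 libraries and 377 to 2060 leaving out each library. For WT+ZnO NPs against WT it was 8085, but 3897 with Y-linked transcripts in the fit. In KO+ZnO NPs against KO it was 2759, but 4290 by DESeq2 on all libraries, 571 by edgeR on only those groups and 451 to 3195 leaving out each library. Between the groups given ZnO NPs it was 618, but 2322 by DESeq2 on all libraries, 0 by edgeR on only those groups, 284 with no filter on low counts, 1 with Y-linked transcripts in the fit and 1 to 1609 leaving out each library. For the interaction it was 1633, but 3147 by DESeq2, 1086 with no filter, 126 with Y-linked transcripts in the fit and 461 to 1646 leaving out each library.

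Leaving out each library in turn, the interaction estimate (log2) ran from -0.194 to 1.22 for *Klk6*, from -0.946 to 1.61 for *Klk9*, from -0.174 to 0.588 for *Klk11* and from -1.3 to 1.57 for *Klk14*. The change between the groups given ZnO NPs ran from -0.42 to 2.15 for *Klk9*, from -0.377 to 1.06 for *Klk10* and from -0.00354 to 0.768 for *Klk11*. In KO against WT it ran from -0.0683 to 0.364 for *Klk11*, and *Klk7* was at -0.0873 with Y-linked transcripts in the fit. The lower ends for *Klk6*, *Klk9*, *Klk10* and, except in KO against WT, *Klk11* came without KO+ZnO NPs replicate 1.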
